A study of Mus musculus with 4 samples.

Results

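The transferrin receptor and 9 further genes of iron and heme handling were followed across 4 Affymetrix Mouse 430 2.0 arrays. The genes are Tfrc, Slc11a2, Slc40a1, Ireb2, Aco1, Fth1, Ftl1, Hmox1, Alas1 and Alas2, and every probe set whose platform annotation names any of them was taken. This gave 25 probe sets of 45101 on the array, with all 10 genes represented. Of the 25 probe sets, 22 name a single gene and 3 name Ftl1 together with other genes. A further trait of 3 of the 22 is that they are the array maker's own control probe sets for the 5' end, middle and 3' end of the Tfrc transcript. All 4 arrays held RNA of T-lineage cells carrying both CD4 and CD8 (double-positive, DP). In 2 of them the cells came from a peripheral tumour, a thymoma over-expressing Notch1-IC, with the genotype label T-ALL. In the other 2 they came from normal thymus of wild-type mice. Both groups carry the background label C57/BLACK6. Notch1-IC is the intracellular, active part of the Notch1 receptor. The promoter that drives it, the age of the mice and the number of animals are not stated in the labels used here. The sample type label of the normal arrays also reads as tumour, against their titles, sources and genotype.

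Cells take up iron mainly as transferrin, which the transferrin receptor carries into endosomes, where the metal leaves through the transporter encoded by Slc11a2. Iron that is not used is stored in ferritin, built of heavy (Fth1) and light (Ftl1) chains, or leaves the cell through ferroportin (Slc40a1). The iron regulatory proteins, encoded by Aco1 and Ireb2, bind stem-loops in the transcripts of several of these genes when iron is scarce, which stabilises Tfrc mRNA and blocks translation of ferritin. Heme is made in a pathway that starts with Alas1 in most cells and with Alas2 in red cell precursors, and is broken down by heme oxygenase (Hmox1). Dividing lymphocytes are known for high transferrin receptor levels.

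In the tumour arrays the import genes Tfrc and Slc11a2 were higher, both ferritin chains were lower, and Alas2 stood out from a level at background in the normal arrays. Of the 25 probe sets, 7 rose and 4 fell in limma's moderated test at an adjusted p below 0.05. Over all 45050 probe sets tested, 11.3% rose and 11.5% fell. The 7 that rose belong to 5 genes (Tfrc, Slc11a2, Slc40a1, Alas1 and Alas2) and the 4 that fell to Fth1 and Ftl1. The number that rose was 4 without tumour replicate 2. The median difference, tumour minus normal, was 0.49 on the log2 scale over the 25 probe sets and -0.02 over all probe sets tested. The 0.49 is not a median over genes, since genes with several probe sets weigh more in it. Tfrc and Slc11a2 have the most probe sets, all with positive differences. Of the 25, 17 lay above background on all 4 arrays and 2 on none. Background was set on each array by the brightest of 27 bacterial control probe sets, and lay between 12.3 and 17.8 intensity units. With 2 arrays a group, precision is limited by their number. The labels do not tie replicate arrays to different mice, so each p-value reflects the spread among these arrays alone, and that spread may be technical.

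**Figure D1:**
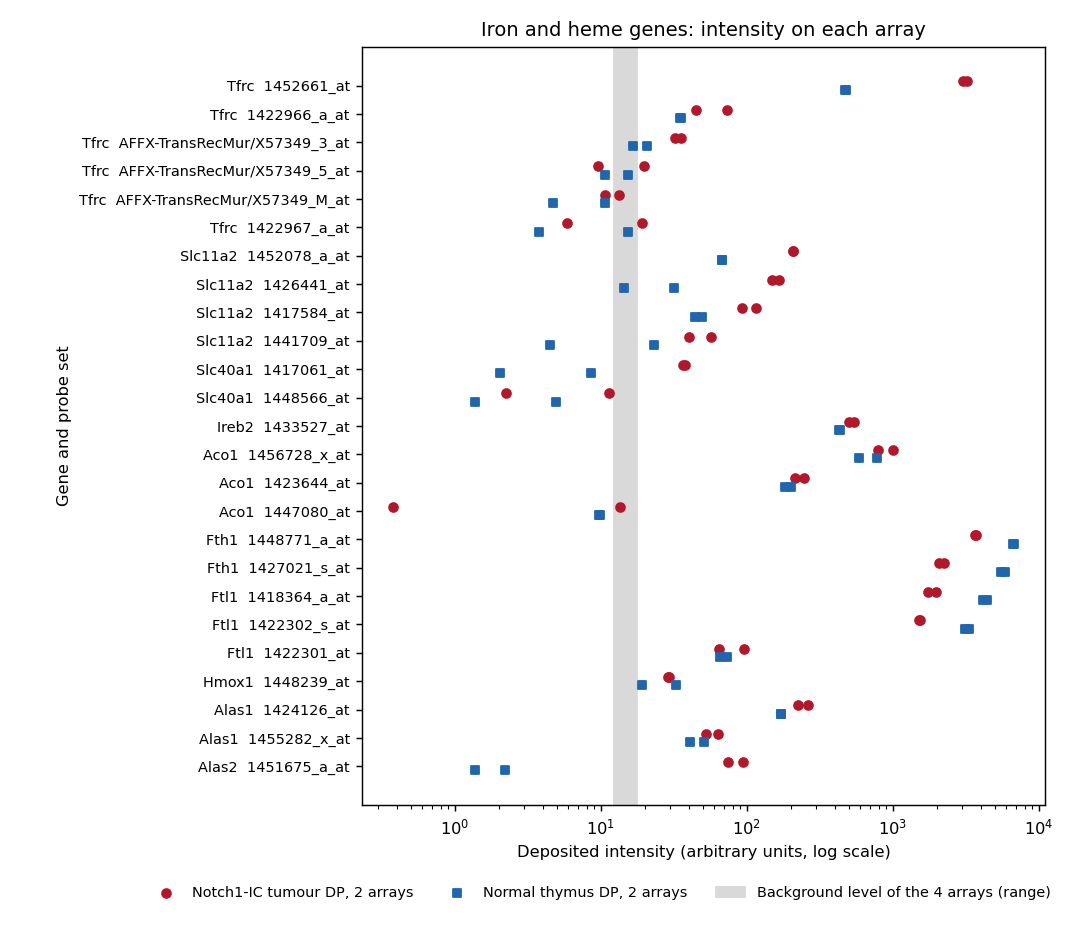
Deposited intensity (log scale) of the 25 probe sets on each of the 2 tumour arrays (circles) and 2 normal arrays (squares), with the range of the 4 background levels in grey. The tumour points of Tfrc 1452661_at lie at 3009 and 3216, right of the normal points at 473 and 475, while those of both Fth1 probe sets lie left of the normal points.

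Facts of the whole data set bear on all values below. The ratio of the 3' to the 5' control probe set was higher in the tumour arrays, at 2.46 and 2.53 against 1.28 and 1.20 in the normal arrays for beta-actin, and at 1.84 and 1.85 against 0.912 and 0.897 for Gapdh. The part of this RNA measure in the differences was not tested. The BioB, BioC and BioD hybridization controls were 0.60 higher (log2) in the tumour arrays, and scaling the arrays to them moved the median difference of all probe sets from -0.02 to -0.63. Of 13 measured DP and T-lineage markers, all 13 lay above background on every array, 11 were lower and 1, Ptcra, the pre-TCR alpha chain, was higher in the tumour. Cd4 had 183 and 188 units in the tumour arrays, against 799 and 778 in the normal arrays. Cd8a had 1287 and 1310 units in the tumour arrays and 9074 and 8383 in the normal arrays. Markers of other blood cells also differed. Of 17 macrophage and monocyte markers, 10 were higher and none lower, with a summed intensity of 2312 and 2526 in the tumour arrays against 131 and 210 in the normal arrays. Of 10 neutrophil markers, 7 were higher and none lower (sums of 2169 and 2215 in the tumour arrays, 200 and 262 in the normal arrays). Of 5 B cell markers, 2 were lower and none higher, with Cd79a and Pax5 at or below background on all 4 arrays.

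Sequence just upstream of the transcription start is shown for a gene that rose, a gene that fell and a gene at background in the normal arrays. RefSeq windows of GRCm38.p6 were found for 7 of the 10 genes, 10 windows in all. In the 250 bases before the start, CACGTG, the E-box bound by Myc and other factors, was in 0 of the 10 windows and in 6.02% of 32851 windows of all genes. TGGGAA, a core of the RBPJ site through which Notch acts, was in 2 windows and in 21.6% of all. These were the Aco1 window and that of the more upstream Fth1 start, while the other Fth1 window had no match. The antioxidant response core, TGA and GC with 5 free bases between them, was in 2 (Alas1 and the window of a second Tfrc start) and in 37.2% of all. The motif AGATAA, which GATA1 and its relatives bind, was added after the values were seen, and was in 1 window (Alas2) and in 9.99% of all. Both strands were searched. The loop pattern of an iron-responsive element, a C, 5 bases and CAGTGN on the gene's strand, was searched in the whole windows of 300 bases. It was in 0 of the 10 and in 10.4% of all. Of each window, 250 bases lie before the start, whereas these elements lie in transcripts. The count therefore cannot tell whether the transcripts of these genes carry them. A match describes letters and is not evidence of a site. The 160 bases before the start are printed 5′ to 3′ on the gene's strand, with motif matches in capitals.
Tfrc, chr16:32608736-32608895, plus strand: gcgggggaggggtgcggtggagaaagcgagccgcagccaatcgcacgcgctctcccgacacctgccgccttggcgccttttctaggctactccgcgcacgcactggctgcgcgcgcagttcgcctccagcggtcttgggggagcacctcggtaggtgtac
Ftl1, chr7:45459887-45460046, minus strand: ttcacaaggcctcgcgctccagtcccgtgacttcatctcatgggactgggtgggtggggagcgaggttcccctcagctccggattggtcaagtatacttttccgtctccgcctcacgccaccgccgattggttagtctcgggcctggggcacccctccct
Alas2, chrX:150547257-150547416, plus strand: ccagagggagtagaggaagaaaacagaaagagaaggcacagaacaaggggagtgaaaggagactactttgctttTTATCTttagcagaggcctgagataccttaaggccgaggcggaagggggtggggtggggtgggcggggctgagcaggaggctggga
The capitals in Alas2 mark AGATAA on the opposite strand, and none of the motifs was in the Tfrc and Ftl1 stretches.

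Tfrc, which encodes the transferrin receptor, was higher in the tumour on its brightest probe set. Probe set 1452661_at had 3216 and 3009 units in the tumour arrays, against 475 and 473 units in the normal arrays. Both tumour arrays lay far above both normal arrays, and the replicates of each group were close together. This was a 6.56-fold rise, or 2.71 ± 0.08 in log2 units (± SE here and below, with 2 arrays in each group; limma adjusted p = 7.37e-08). With the spike controls as the scale it was 2.11 (adjusted p = 2.03e-07).

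The other 5 probe sets annotated to Tfrc were dim and did not pass the test. Probe set 1422966_a_at had 73.8 and 45.2 units in the tumour arrays and 35.2 and 34.8 in the normal arrays, a difference of 0.72 ± 0.33 (limma adjusted p = 0.170). Its groups did not overlap, but the tumour arrays differed from each other by more than either normal array differed from tumour replicate 2. Probe set 1422967_a_at had 5.88 and 19.3 units in the tumour arrays and 3.77 and 15.3 in the normal arrays, so the groups overlapped around background. The 3' control probe set had 35.6 and 32.4 units in the tumour arrays and 16.7 and 20.9 in the normal arrays (difference 0.87 ± 0.42, adjusted p = 0.195). The middle control had 10.7 and 13.4 units in the tumour arrays against 4.68 and 10.6 in the normal arrays, and the 5' control 19.8 and 9.58 against 15.5 and 10.7. Neither of these 2 exceeded background on a normal array, and each did so on 1 tumour array. The large rise of Tfrc therefore stands on 1 of its 6 probe sets, with 5 others at low signal.

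Slc11a2, the proton-coupled iron transporter also known as DMT1, was higher on 3 of its 4 probe sets. Probe set 1452078_a_at had 208 and 207 units in the tumour arrays, against 68.0 and 67.3 units in the normal arrays, a 3.07-fold rise (1.62 ± 0.18, limma adjusted p = 1.12e-04). The groups were well apart and the replicates nearly equal. On 1426441_at the values were 148 and 166 units in the tumour arrays and 31.9 and 14.4 in the normal arrays (2.88 ± 0.37, adjusted p = 3.32e-04). On 1417584_at they were 93.1 and 116 units in the tumour arrays and 49.5 and 44.5 in the normal arrays (1.15 ± 0.24, adjusted p = 0.00658). That last call ended when tumour replicate 2 was left out (adjusted p = 0.0602), and likewise with normal replicate 2 left out (adjusted p = 0.0559). Spike scaling also ended it (0.55, adjusted p = 0.132). The fourth, 1441709_at, had 40.4 and 57.1 units in the tumour arrays against 4.48 and 23.3 in the normal arrays (2.23 ± 0.72, adjusted p = 0.0533), where normal replicate 1 lay below background. Without normal replicate 1 the difference was 1.04 (adjusted p = 0.218), and without normal replicate 2 it was 3.42 (adjusted p = 0.0113). On all 4 probe sets both tumour arrays lay above both normal arrays. The groups were also apart, in either direction, on 19 of the 25 member probe sets. With 2 arrays a group, a random order of the 4 arrays sets the groups apart with a probability of 0.333. The share of all probe sets with groups apart was not counted, so the 19 are not read as a trait of these genes.

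Other genes of iron uptake were taken from a list, each by its brightest probe set of a single gene symbol. Of 18193 such genes, 16.3% rose and 11.7% fell, with a median difference of 0.09. Among 9 measured genes of iron import and endosomal release, 5 rose (Tfrc and Slc11a2 included) and 1 fell, with a median of 1.40. Lrp1, an endocytic receptor that also takes up heme bound to hemopexin, had 160 and 103 units in the tumour arrays and 22.7 and 12.3 in the normal arrays (2.94 ± 0.38, limma adjusted p = 3.56e-04), where 1 of the 2 lay above background. Slc39a8, a metal transporter known as ZIP8, had 220 and 238 units in the tumour arrays and 66.7 and 68.8 in the normal arrays (1.76 ± 0.17). Exoc6, an exocyst subunit needed for transferrin recycling in mouse red cell precursors, rose by 1.40 ± 0.16. Snx3, a sorting nexin that returns the transferrin receptor to the surface, was lower, with 2250 and 2189 units in the tumour arrays and 3475 and 3232 in the normal arrays (-0.59 ± 0.07). Steap3, the endosomal iron reductase, had 41.4 and 17.8 units in the tumour arrays and 11.3 and 16.1 in the normal arrays and did not pass (adjusted p = 0.286). These 4 calls of non-members held without any single array and with spike scaling. The macrophage markers given above moved with Lrp1, and their part was not tested.

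**Figure D2:**
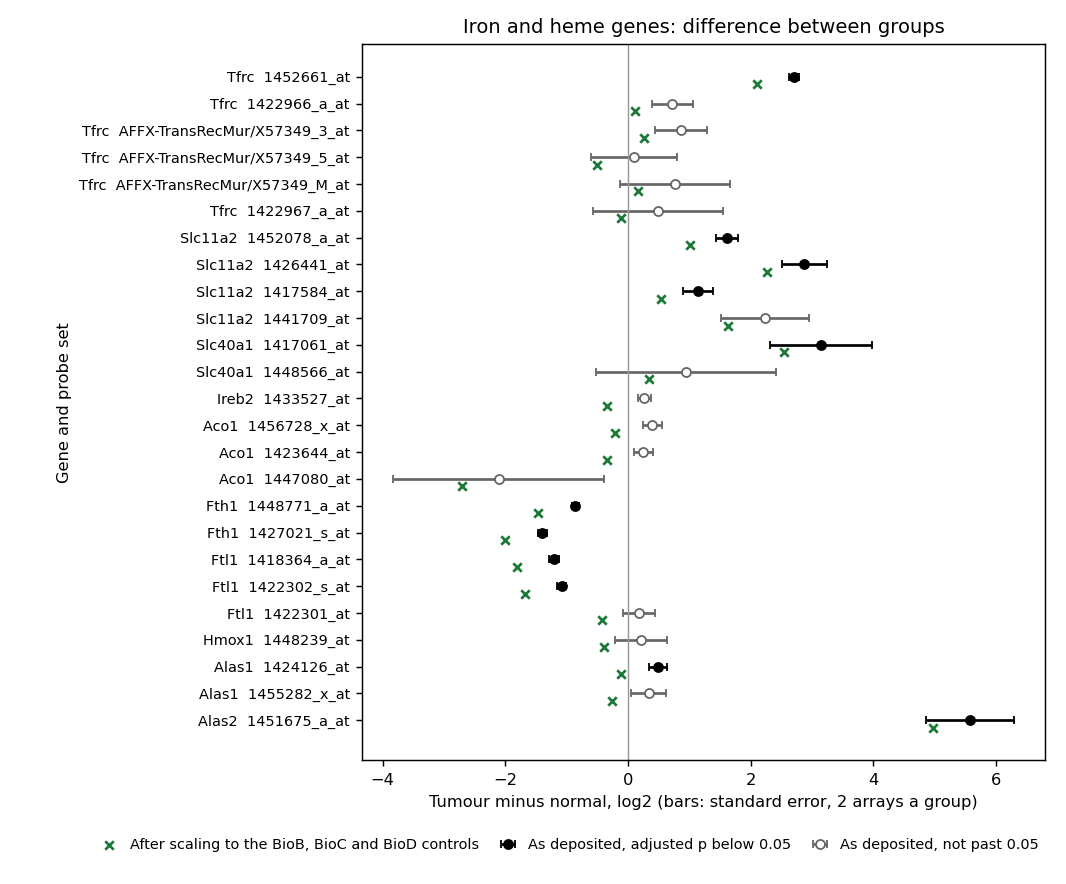
Difference between the 2 tumour and 2 normal arrays for each of the 25 probe sets (log2, points with standard error), filled where the adjusted p was below 0.05, with the value after scaling to the spike controls as a cross. Tfrc 1452661_at lies at 2.71 with a narrow bar and the 4 filled ferritin points lie between -1.40 and -0.86, while the filled points of Alas2 and Slc40a1 rest on normal arrays below background and do not size or rank those differences.

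Both ferritin chains were lower in the tumour. Fth1 probe set 1448771_a_at had 3667 and 3700 units in the tumour arrays, against 6619 and 6741 units in the normal arrays (-0.86 ± 0.05, limma adjusted p = 4.19e-06), a level 1.81-fold lower. Fth1 probe set 1427021_s_at had 2248 and 2078 units in the tumour arrays and 5900 and 5488 in the normal arrays (-1.40 ± 0.07, adjusted p = 9.33e-07), 2.63-fold lower. Both tumour arrays lay below both normal arrays on both probe sets, by many times the gap between replicates.

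For Ftl1, 2 of the 3 probe sets fell, and all 3 also name Ftl1-ps2, a pseudogene. Probe set 1418364_a_at had 1993 and 1739 units in the tumour arrays and 4135 and 4446 in the normal arrays (-1.20 ± 0.08, adjusted p = 5.82e-06). Probe set 1422302_s_at had 1532 and 1516 units in the tumour arrays and 3140 and 3319 in the normal arrays (-1.08 ± 0.07, adjusted p = 4.38e-06). The third, 1422301_at, which also names 3 microRNA genes, had 95.4 and 64.9 units in the tumour arrays and 65.5 and 73.6 in the normal arrays, with overlapping groups (adjusted p = 0.706). Ferritin genes have many processed copies in the genome, so how far copies add to these signals is uncertain. All 4 ferritin calls held when any single array was left out, and with spike scaling the differences were larger, from -2.00 to -1.46.

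Over all genes, 16.3% rose and 11.7% fell. Of 5 measured genes of iron storage and iron chaperoning, 2 fell and none rose. Besides Fth1 this was Pcbp1, a chaperone that delivers iron to ferritin, with 4504 and 4860 units in the tumour arrays and 5448 and 5754 in the normal arrays (-0.26 ± 0.06, limma adjusted p = 0.0135). The Pcbp1 call was lost without tumour replicate 1 (adjusted p = 0.189), tumour replicate 2 (0.0609) or normal replicate 2 (0.0907). Ncoa4, which carries ferritin to lysosomes, had 844 and 796 units in the tumour arrays and 823 and 1118 in the normal arrays and did not pass (adjusted p = 0.304). Ftmt, mitochondrial ferritin, was at or below background on all 4 arrays.

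The 2 iron regulatory proteins showed small differences that did not pass. Ireb2, which encodes IRP2, had 504 and 540 units in the tumour arrays and 430 and 437 in the normal arrays (0.27 ± 0.11, limma adjusted p = 0.110). Its groups did not overlap, yet the sign turned with spike scaling (-0.33, adjusted p = 0.0439), where it counted as lower. Aco1, whose product is IRP1 or cytosolic aconitase depending on its iron-sulfur cluster, had 791 and 1009 units in the tumour arrays and 589 and 786 in the normal arrays on 1456728_x_at (adjusted p = 0.109). On 1423644_at it had 246 and 213 units in the tumour arrays and 184 and 201 in the normal arrays (0.25 ± 0.15, adjusted p = 0.292). The third Aco1 probe set, 1447080_at, lay at or below background on all 4 arrays. Both brighter Aco1 probe sets also turned sign with spike scaling (-0.21 and -0.35). Fbxl5, the iron-sensing ubiquitin ligase subunit that marks IRP2 for degradation, was the only gene of the 3 in this group that passed, with 338 and 313 units in the tumour arrays and 183 and 261 in the normal arrays (0.57 ± 0.17, adjusted p = 0.0421). Its call was lost without tumour replicate 1 (adjusted p = 0.219), tumour replicate 2 (0.147) or normal replicate 1 (0.259), and its sign turned with spike scaling (-0.03).

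Slc40a1, which encodes ferroportin, the iron exporter, was dim. Probe set 1417061_at had 38.0 and 36.4 units in the tumour arrays, against 2.05 and 8.54 units in the normal arrays. Neither normal array exceeded background, so the tumour level was at least 2.65-fold higher (limma adjusted p = 0.0212). That call ended without tumour replicate 1 (adjusted p = 0.152), tumour replicate 2 (adjusted p = 0.142) or normal replicate 1 (adjusted p = 0.0550). The second probe set, 1448566_at, lay at or below background on all 4 arrays. Of 8 measured genes of iron export and the hepcidin axis, 6 did not exceed background on either normal array. Of the 8, 2 rose and none fell, beside 16.3% and 11.7% of all genes. Hfe, a membrane protein that binds the transferrin receptor, was the other, with 49.6 and 36.0 units in the tumour arrays and 13.9 and 11.6 at background in the normal arrays, at least 3.02-fold higher (adjusted p = 0.0201). The Hfe call was lost without tumour replicate 1 (adjusted p = 0.119), normal replicate 1 (0.0685) or normal replicate 2 (0.0934), and with spike scaling (1.13, adjusted p = 0.0929). Macrophages are known for high ferroportin, and macrophage markers such as Csf1r moved in the same direction (550 and 625 units in the tumour arrays, 20.5 and 17.9 in the normal arrays). Mrc1 had 344 and 389 units in the tumour arrays, against 14.1 and 10.2 in the normal arrays, and Lyz2 had 291 and 291 against 27.6 and 32.1. Spic, the factor that defines iron-recycling spleen macrophages, was at or below background on all 4 arrays. The part of these markers in the Slc40a1 and Hfe values was not tested.

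Alas2, the first enzyme of heme synthesis in red cell precursors, was at background in normal DP cells and above it in the tumour. Probe set 1451675_a_at had 74.4 and 93.7 units in the tumour arrays, against 2.22 and 1.38 units in the normal arrays. With the normal arrays raised to background the tumour level was at least 5.97-fold higher (limma adjusted p = 3.37e-04), and the call held without any single array and with spike scaling. Transcripts of adult globin, carried in red cell precursors and reticulocytes, moved with it. The probe set shared by the adult beta globin genes (1417184_s_at) had 6822 and 6619 units in the tumour arrays, against 113 and 73.7 units in the normal arrays, 73.7-fold higher (adjusted p = 3.54e-08). Of 3 probe sets shared by Hba-a1 and Hba-a2, 1428361_x_at had 8313 and 7721 units in the tumour arrays and 140 and 184 in the normal arrays, 1452757_s_at had 6528 and 6965 against 102 and 124, and 1417714_x_at had 587 and 718 against 8.18 and 2.93, below background (at least 46.4-fold higher). These shared globin probe sets were looked up after the values were seen. Of 15 listed erythroid markers, 9 had a probe set of a single symbol, and none of these passed the test. Their summed intensity was 127 and 132 in the tumour arrays and 73.6 and 78.8 in the normal arrays. Epb42, Rhag, Tal1 and the probe set that names Hba-a1 alone did not exceed background on either tumour array. The 4 that exceeded it on both tumour arrays were Epor, Gata1, Klf1 and Slc4a1, and 1 (Sptb) did so on both normal arrays. Epor had 23.5 and 20.3 units in the tumour arrays and 4.3 and 3.9 in the normal arrays. Gata1 had 33.8 and 25.4 units in the tumour arrays and 10.02 and 22.2 in the normal arrays. Klf1, another factor of red cell precursors, had 18.4 and 29.9 units in the tumour arrays and 11.7 and 8.18 in the normal arrays, and Slc4a1, the band 3 anion exchanger, 26.7 and 20.3 against 10.4 and 12.0. In bulk RNA, more cells of a type and more RNA per cell cannot be told apart. The part of red cell RNA in the Alas2, Tfrc and heme gene values was not tested.

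**Figure D3:**
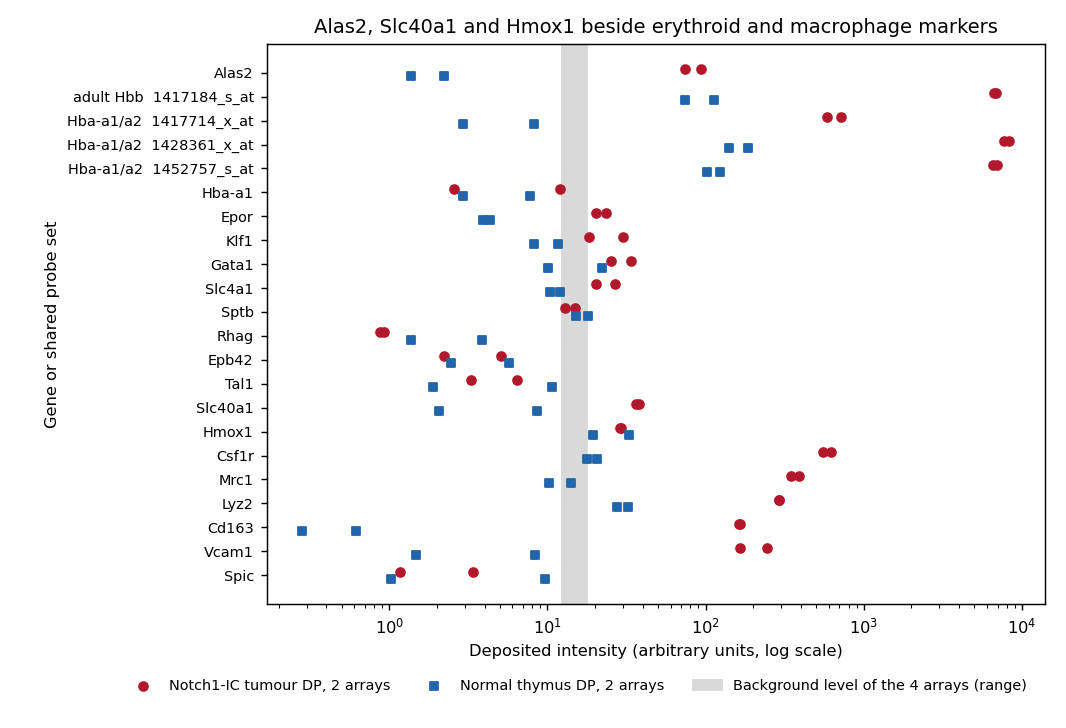
Intensity (log scale) of Alas2, Slc40a1 and Hmox1 beside adult globin probe sets, the 9 erythroid markers and 6 of the 17 macrophage markers on the 2 tumour arrays (circles) and 2 normal arrays (squares), with the range of background levels in grey. The tumour points of Alas2 and of the 4 globin probe sets lie right of background. The normal points of Alas2 and of 1417714_x_at lie below it, so that those 2 gaps have only the lower bounds given above (at least 5.97-fold and 46.4-fold). The 9 erythroid markers lie near or below background, with 4 above it on both tumour arrays and 1 on both normal arrays.

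Alas1, the general form of the enzyme, differed little. Probe set 1424126_at had 225 and 262 units in the tumour arrays and 173 and 173 in the normal arrays (0.49 ± 0.15, limma adjusted p = 0.0393). The call was lost without any 1 of the 4 arrays (adjusted p from 0.0599 to 0.204), and the sign turned with spike scaling (-0.11). On 1455282_x_at it had 52.6 and 63.6 units in the tumour arrays against 51.1 and 40.8 in the normal arrays (adjusted p = 0.484).

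Of 14 measured genes of heme synthesis, 6 rose and 2 fell, with a median of -0.01. The 6 hold Alas1 and Alas2. Alad, which joins the products of Alas1 and Alas2 into porphobilinogen, had 375 and 345 units in the tumour arrays and 77.4 and 92.6 in the normal arrays, a 4.25-fold rise (2.09 ± 0.16, limma adjusted p = 1.33e-05). Abcb6, a porphyrin transporter, had 140 and 118 units in the tumour arrays and 24.3 and 32.1 in the normal arrays (2.20 ± 0.27). Fech, ferrochelatase, which inserts iron into the ring, had 538 and 541 units in the tumour arrays and 266 and 238 in the normal arrays (1.10 ± 0.12). Slc25a38, a mitochondrial glycine carrier that supplies the first step, was lower, with 111 and 96.4 units in the tumour arrays and 229 and 237 in the normal arrays (-1.17 ± 0.16). These 4 calls held without any single array and kept their sign with spike scaling. Uros, which closes the porphyrin ring, had 117 and 104 units in the tumour arrays and 213 and 161 in the normal arrays (-0.75 ± 0.19, adjusted p = 0.0182). Its call was lost without tumour replicate 1 (adjusted p = 0.0590), tumour replicate 2 (0.117) or normal replicate 1 (0.189). Urod, Cpox and Ppox, which act after it, did not pass, with differences of -0.18, 0.05 and -0.56. Calls in this list thus went in both directions, beside 16.3% of all genes that rose and 11.7% that fell.

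Hmox1, the inducible heme oxygenase, did not pass the test. It had 28.9 and 29.4 units in the tumour arrays and 32.7 and 19.3 in the normal arrays (0.21 ± 0.43, limma adjusted p = 0.800). The tumour arrays lay between the normal arrays, and all 4 values were close to background. Among 10 genes of heme breakdown and transport, 2 rose and 2 fell, beside 16.3% and 11.7% of all genes. Hmox2, the constitutive heme oxygenase, had 944 and 777 units in the tumour arrays and 1461 and 1616 in the normal arrays (-0.84 ± 0.11, adjusted p = 3.46e-04), and its call held without any single array. Bach1, a heme-binding repressor of Hmox1, had 2352 and 2323 units in the tumour arrays and 2668 and 2756 in the normal arrays (-0.21 ± 0.07, adjusted p = 0.0439). Flvcr1, a heme exporter, had 1042 and 1282 units in the tumour arrays and 625 and 809 in the normal arrays (0.70 ± 0.14, adjusted p = 0.00488). Slc48a1, a heme transporter of endosomes and lysosomes, had 224 and 206 units in the tumour arrays and 157 and 143 in the normal arrays (0.52 ± 0.15, adjusted p = 0.0351), and its sign turned with spike scaling (-0.08). The calls of Bach1 and Slc48a1 were lost without any 1 array, and that of Flvcr1 without tumour replicate 2 (adjusted p = 0.0930) or normal replicate 1 (0.0605), and with spike scaling (0.10, adjusted p = 0.690).

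Hmox1 is also a target of NRF2, the factor of the oxidative stress response. Of 9 measured genes of NRF2, its partner KEAP1 and NRF2 or BACH1 targets, 3 rose and 1 fell. Over all genes these shares were 16.3% and 11.7%. Slc7a11, the cystine transporter, had 1.25 and 15.03 units in the tumour arrays, with 1 of the 2 above background, against 140 and 129 units in the normal arrays (limma adjusted p = 0.00352). That call was lost without normal replicate 1 (adjusted p = 0.0831) or normal replicate 2 (0.0702). Gclc, of glutathione synthesis, had 519 and 548 units in the tumour arrays and 274 and 332 in the normal arrays (0.82 ± 0.13, adjusted p = 0.00110), and its call was lost with spike scaling (0.22, adjusted p = 0.277). Txnrd1, a thioredoxin reductase, and Keap1 rose by 0.44 ± 0.11 and 0.38 ± 0.12, and both turned sign with spike scaling (-0.16 and -0.22). The Txnrd1 call was lost without tumour replicate 1 (adjusted p = 0.134) or normal replicate 1 (0.102), and that of Keap1 without any 1 array other than normal replicate 1 (adjusted p from 0.182 to 0.247).

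Iron-sulfur clusters are the other main use of mitochondrial iron. Of 19 measured genes of mitochondrial iron import and cluster assembly, 4 rose and 3 fell, beside 16.3% and 11.7% of all genes. The median of the list was 0.09, the same as over all genes. Hspa9, a mitochondrial chaperone, had 1159 and 1210 units in the tumour arrays and 531 and 507 in the normal arrays (1.19 ± 0.09, limma adjusted p = 1.26e-05). Glrx5, a glutaredoxin that passes clusters on in mitochondria, had 3803 and 3710 units in the tumour arrays and 1812 and 1648 in the normal arrays (1.12 ± 0.07, adjusted p = 4.51e-06). Slc25a37, the mitochondrial iron importer of red cell precursors, had 304 and 283 units in the tumour arrays and 160 and 236 in the normal arrays (0.60 ± 0.19, adjusted p = 0.0469). Its call was lost without any 1 array other than normal replicate 2 (adjusted p from 0.161 to 0.280), and with spike scaling (-0.01, adjusted p = 0.988). Factors of the cytosolic assembly line moved in both directions. Nubp2, a cytosolic scaffold, had 248 and 228 units in the tumour arrays and 488 and 526 in the normal arrays (-1.09 ± 0.12, adjusted p = 1.26e-04), and Nubp1, its partner, differed by -0.77. Ciapin1, an electron donor of cytosolic assembly, had 457 and 460 units in the tumour arrays and 220 and 305 in the normal arrays (0.82 ± 0.16, adjusted p = 0.00386), and its call was lost without tumour replicate 1 (adjusted p = 0.05001) or tumour replicate 2 (0.0565), and with spike scaling (0.22, adjusted p = 0.383). Ciao1, of the complex that inserts clusters into cytosolic and nuclear proteins, had 522 and 584 units in the tumour arrays and 958 and 1100 in the normal arrays (-0.90 ± 0.11, adjusted p = 2.24e-04). Of Iscu, the mitochondrial scaffold, and Nfs1, the sulfur donor, neither passed (-0.07 and 0.04). The calls of Hspa9, Glrx5, Nubp1, Nubp2 and Ciao1 held without any single array and kept their sign with spike scaling.

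Over all 8 lists, 23 of 77 measured genes rose and 11 fell, with a median of 0.20, against 16.3% and 11.7% of all genes. The number that rose was 14 without tumour replicate 1, 15 without tumour replicate 2 and 15 without normal replicate 1. With spike scaling 13 rose and 32 fell. Without probe sets at background on all arrays, 25 of 73 list genes rose and 12 fell. In that fit, 5520 of all 31314 probe sets kept rose and 5668 fell. These counts are over probe sets and not over genes, so they are not a like measure for the list genes. In the main fit 11.3% of all probe sets rose, against 16.3% of genes.

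**Figure D4:**
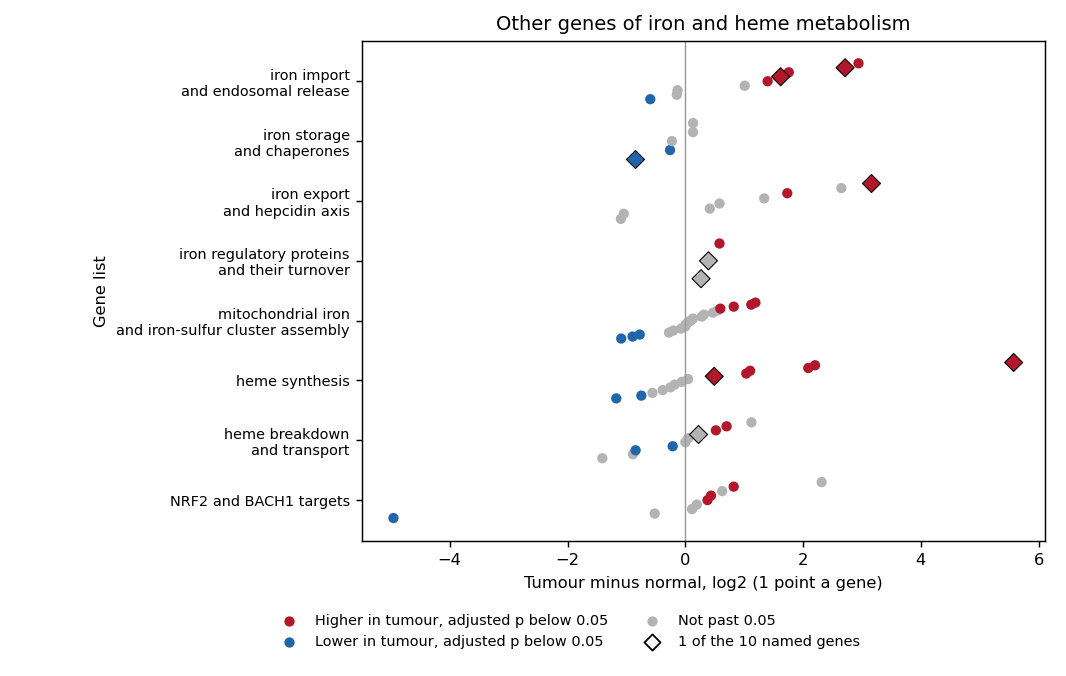
Difference, tumour minus normal (log2), of each measured gene in the 8 lists of iron and heme metabolism, coloured by the call at an adjusted p below 0.05, with the members as diamonds (Ftl1, whose probe sets all name several genes, is not drawn). The import list has 5 points called higher and 1 called lower, the storage list has 2 called lower, and points of genes below background in a group, such as Alas2 and Slc40a1, do not size those differences.

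Genes with a pattern most like that of Tfrc over the 4 arrays were sought among 9675 probe sets that averaged at least 7 in log2 units, by the Euclidean distance between centred log2 profiles. The nearest was Rdh10, at a distance of 0.040, with 811 and 734 units in the tumour arrays and 120 and 119 in the normal arrays. Ybx3 followed at 0.075 and Gpatch4 at 0.087. With 4 arrays in 2 groups, this measure mostly ranks genes by the size of their difference.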

How the data were processed

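Gene expression was measured on 4 Mouse 430 2.0 arrays, 2 of tumour and 2 of normal DP cells, grouped by title. RNA (100 ng) was labelled by 3' in vitro transcription, per the labels' protocols. The authors deposited 1 linear intensity per probe set and array (0.08 to 19270), and per the submitters' processing notes the tool was RMA. After sorting each array, values of equal rank differed by under 1% across arrays for 77.7% of ranks, so a shift common to all genes would be hidden.

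Log2 was taken with no offset or filter. Differences over 45050 probe sets were tested with limma 3.58.1 (R 4.3.3, lmFit and eBayes with trend and robust prior, no block), with Benjamini-Hochberg adjustment and a threshold of 0.05. This prior was used because the spread depends on level: the median SD of replicates (log2) was 1.31 for the dimmest 25% of probe sets and 0.102 for the brightest 25%. The fit was also run on simulated data whose spread was taken from the same fit. Changes were added there only to probe sets averaging at least 7 in log2 units. That run therefore cannot check the assumed spread or the calls of dim probe sets. Of 64 control probe sets, the 51 without a mouse gene symbol were left out. Genes were named from the platform annotation, by the brightest probe set of 1 symbol.

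Where neither array of a group exceeded background, the fold is a bound, computed after lifting those arrays to their background value. Named are all member probe sets and, per list, up to 4 other genes past the threshold with the largest difference and a level above background in a whole group, or 2 of highest level where none passed; genes given as not passing, Uros, Nubp1, Ciapin1, Slc25a37, Cd4, Cd8a and Spic were added after their values were seen. Members, lists, tests and alternatives were chosen with earlier results of these data known. Alternatives were other priors, scalings, filters, thresholds, an offset, 1 probe set a gene, the replicate number as a block and leaving out arrays.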

Additional observations from a re-analysis of the deposited data

How the results depend on the processing

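The 11 member calls were all kept with the trend alone, median subtraction, renewed quantile normalization, an offset of 16, both filters on dim probe sets and the replicate block. With spike scaling 9 were kept, the difference of Alas1 (1424126_at) turned to -0.11, and that of Ireb2, not called before, turned to -0.33. Leaving out single arrays gave 4 to 6 higher and 4 lower member probe sets, 14 to 21 higher and 8 to 9 lower pathway genes, and 3329 to 3985 higher and 3197 to 4391 lower probe sets of all genes. The default prior called 0 of the 45050 probe sets in either direction, so 0 members and 0 pathway genes, with 11346 at an unadjusted p below 0.05. With 1 probe set a gene and the default prior, 759 genes were higher and 401 lower, with 3 member probe sets higher (Tfrc, Slc11a2 and Alas2) and 0 lower, and 7 pathway genes higher and 0 lower. With 1 probe set a gene and the trend and robust prior, 3156 genes were higher and 2251 lower, and 1 member was lower, since the Ftl1 probe sets name several genes. Without x_at and s_at probe sets 2 member probe sets were lower. Spike scaling gave 2075 higher and 11547 lower probe sets, and 13 higher and 32 lower pathway genes. A 2-fold minimum left 2667 and 2825 probe sets, and 14 and 3 pathway genes. At a threshold of 0.01, 15 pathway genes were higher. The replicate number as a block gave 9 higher and 4 lower member probe sets, adding Aco1 1456728_x_at (adjusted p = 2.44e-04) and Slc11a2 1441709_at (adjusted p = 0.00124). The deviations of same-numbered arrays correlated at 0.01 over all probe sets and at 0.25 over probe sets averaging at least 7 in log2, and no source says that the numbers pair samples. Signal over background limits Hmox1, Slc40a1 and the dim Tfrc probe sets. The causes of these changes were not tested.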

Other observations

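Transferrin, the plasma carrier whose receptor Tfrc encodes, is measured by a probe set (1425546_a_at) that names both Trf and Srprb. It had 73.4 and 53.4 units in the tumour arrays, against 8.85 and 3.30 units at or below background in the normal arrays, at least 4.47-fold higher (limma adjusted p = 0.00222). Which of the 2 genes gave the signal is not known from the annotation.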
